A study of Homo sapiens with 24 samples.

Results

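RPRD2 was silenced alone with siRNA in HEK293T, a line from human embryonic kidney cells that carries the SV40 large T antigen, and 2 RPRD2_KD libraries were compared with 2 libraries from cells given control siRNA (CTRL). These 4 libraries were taken by their labels out of 16 HEK293T libraries and 24 libraries in all. Cells were harvested 48 h after transfection, and polyadenylated RNA was read from the 3′ ends of transcripts with the QuantSeq REV kit. The other HEK293T groups used here had 2 libraries each. Single knockdowns were transfected with siRNA to RPRD1A (RPRD1A_KD) or to RPRD1B (RPRD1B_KD). Combined ones were given siRNA to RPRD1B and RPRD2 (RPRD1B_RPRD2_KD) or to all 3 genes (RPRD1A_RPRD1B_RPRD2_KD). A group given siRNA to RPRD1A and RPRD2 (RPRD1A_RPRD2_KD) was left out of the reported fit. It entered the fits with all 16 libraries and the plot of RPRD2 levels by group. A further group carries the label RPRD1A_RPRD1A_KD and is called by it, although RPRD1B was also low in it (levels below). All groups share the parental line and the transfection. The labels do not name the siRNA sequences, so whether a knockdown rests on 1 siRNA is unknown, and they do not say that the libraries of a group came from separate cultures, so p-values measure the spread between these libraries.

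RPRD2 belongs to a small family of nuclear proteins, with RPRD1A and RPRD1B, that carry a CTD-interaction domain. This domain binds the phosphorylated tail (the CTD) of the largest subunit of RNA polymerase II, the enzyme that transcribes messenger RNAs. RPRD1A and RPRD1B are known as adaptors that bring CTD phosphatases to the polymerase, and RPRD2 is the larger and less studied member.

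The 4 libraries held 1833696 to 2413779 counts in genes, with 15975 to 16574 genes detected. A count of 3, taken as the floor of detection, was worth 1.24 to 1.64 CPM (depth-scaled counts) on these totals, so levels of a few CPM rest on few counts. The CPM of single genes are edgeR's on TMM library sizes, and those of the marker lists are on the totals. Of 8 markers of HEK293 cells, 7 were detected in all 4 libraries, with summed levels of 184 to 237 CPM in CTRL and 225 to 228 CPM in RPRD2_KD. Of 13 markers of other cell types, 7 were at 0 in all 4 libraries (PTPRC, CD3E, LYZ, HBB, COL1A2, VWF and APOA1), and their summed levels were 22.9 to 29.9 CPM in CTRL and 22.1 to 26.1 CPM in RPRD2_KD. Libraries with the same replicate number shared a deviation across groups. Reads outside annotated genes made up 34.3% to 36.7% of the replicate 1 libraries and 27.4% to 29.4% of the replicate 2 libraries, so the replicate number was kept as a block in the fit. Bulk RNA cannot tell a change of RNA per cell from a change in the number of cells.

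The target itself fell, by a like amount in both replicate pairs. RPRD2 (chromosome 1, GRCh38 positions 150363091 to 150476566) stood at 99.1 and 102 CPM in the CTRL libraries and at 34.8 and 31.3 CPM in the RPRD2_KD libraries, or 100.6 ± 2.14 and 33.0 ± 2.43 CPM (SD, n = 2 each). The RPRD2_KD level was 32.8% of control, and the log2 fold change was -1.61 (SE 0.15, adjusted p = 4.26e-11). Adjusted p-values here and throughout come from edgeR's quasi-likelihood test with Benjamini-Hochberg adjustment over all 11739 genes tested. RPRD2 passed in each alternative fit tried, with log2 fold changes of -1.72 to -1.51. None of the 3 tested genes on either side of RPRD2 on chromosome 1 passed. MRPS21, a mitochondrial ribosomal protein gene, was at 260 and 257 CPM in CTRL and 273 and 278 CPM in RPRD2_KD, and MCL1, a survival gene of the BCL2 family, had a log2 fold change of -0.03 (SE 0.09).

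Of the other family members, RPRD1A passed and RPRD1B did not. RPRD1A was lower in the RPRD2_KD libraries, at 75.2 and 100.5 CPM against 157 and 166 CPM in CTRL, or -0.88 on the log2 scale (SE 0.14, adjusted p = 4.34e-05). This call was kept on leaving out any 1 of the 4 libraries (adjusted p at most 0.016) and lost without the replicate block (adjusted p = 0.589), and DESeq2 gave RPRD1A no adjusted p. RPRD1A was also at 86.4 and 102 CPM in RPRD1B_KD, measured against the same CTRL libraries and scaled over all 16 libraries, and RPRD2_KD did not differ detectably from RPRD1B_KD in it (log2 difference -0.11, SE 0.14, adjusted p = 0.898). RPRD1B was at 28.7 and 28.3 CPM in CTRL and at 37.8 and 25.2 CPM in RPRD2_KD, and these groups overlapped (log2 fold change 0.11, SE 0.23, adjusted p = 0.918). In RPRD1A_RPRD1A_KD, RPRD1A was at 27.65 and 14.65 CPM and RPRD1B at 14.35 and 8.098 CPM. Both passed as lower than CTRL (adjusted p = 1.861e-20 and 0.002605). Neither differed detectably in RPRD1A_RPRD1B_RPRD2_KD against that group (log2 difference 0.391, SE 0.235 for RPRD1A and -0.09, SE 0.337 for RPRD1B, adjusted p = 0.996 each).

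**Figure D1:**
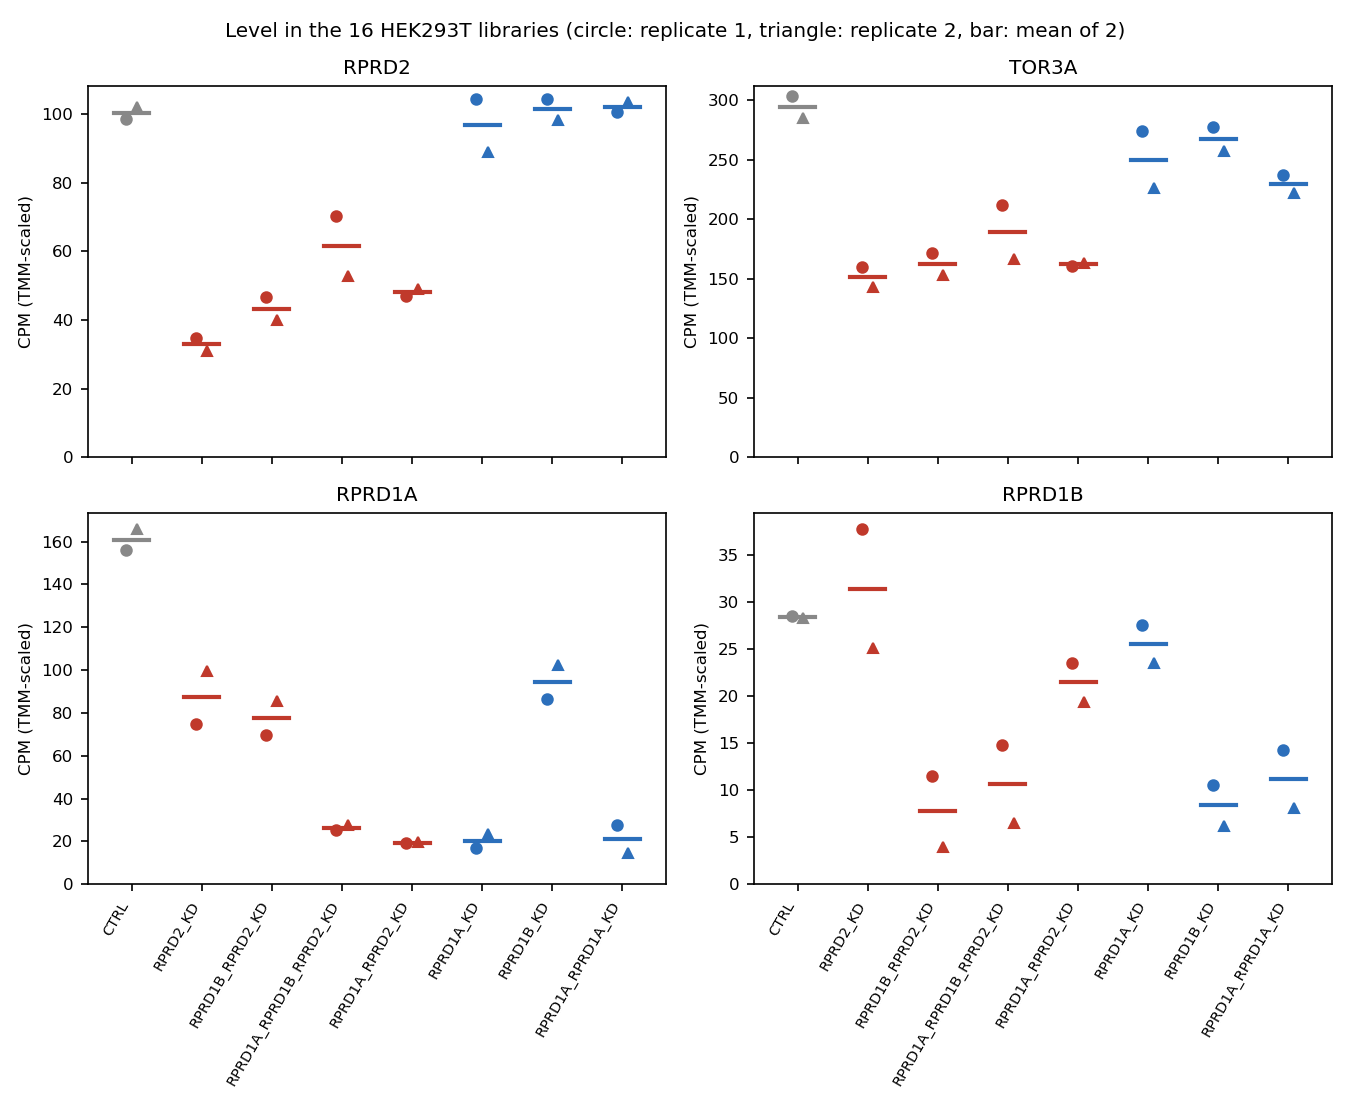
Levels of RPRD2, TOR3A, RPRD1A and RPRD1B in CPM (vertical axes, scaled over the 16 HEK293T libraries) in 8 groups of 2 libraries, with circles for replicate 1, triangles for replicate 2 and bars for the group mean; groups given RPRD2 siRNA are red, the other silenced groups blue and CTRL grey. RPRD2 was at 31.1 to 70.2 CPM in the red groups and at 89.0 to 105 CPM elsewhere, and TOR3A was at 143 to 212 CPM in the red groups and at 222 to 304 CPM elsewhere.

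Beyond RPRD2, most genes that passed the test were lower. In RPRD2_KD against CTRL, 161 of 11739 genes tested passed at adjusted p under 0.05 (1.37%), of which 145 were lower (1.24%) and 16 higher (0.136%). The median log2 fold change of the lower genes was -0.52 and 11 of them reached a 2-fold change, so most falls were moderate. At an unadjusted p under 0.05 there were 1429 genes. All 145 lower genes moved the same way in both replicate pairs, as did 6607 of the 11739 genes tested. Of the 145, 129 had CTRL and RPRD2_KD libraries that did not overlap. The calls rest on these same libraries, so neither count is separate support. Over all genes, 15.8% were lower and 16.3% higher without overlap.

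The number of genes rests on the fit. The 14 libraries of 7 groups entered it with the replicate block, and this fit was chosen with earlier results of these data known. It leaves out the group given RPRD1A and RPRD2 siRNA, since 1 library of that group stands far from the other 15 (-51.6 on the first principal component, against -2.51 to 11.3). With all 16 libraries and the block, 2 genes passed (RPRD2 and TOR3A), and without the block only RPRD2 did. In the 16-library fit with the block, all 161 genes kept their direction and 159 had an unadjusted p under 0.05. Leaving out 1 library of the comparison left 25 to 77 genes, with the lowest number without RPRD2_KD replicate 2, and DESeq2 called 77, of which 76 were among the 161. DESeq2 gave an adjusted p to 2863 genes, 111 of the 161 among them.

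**Figure D2:**
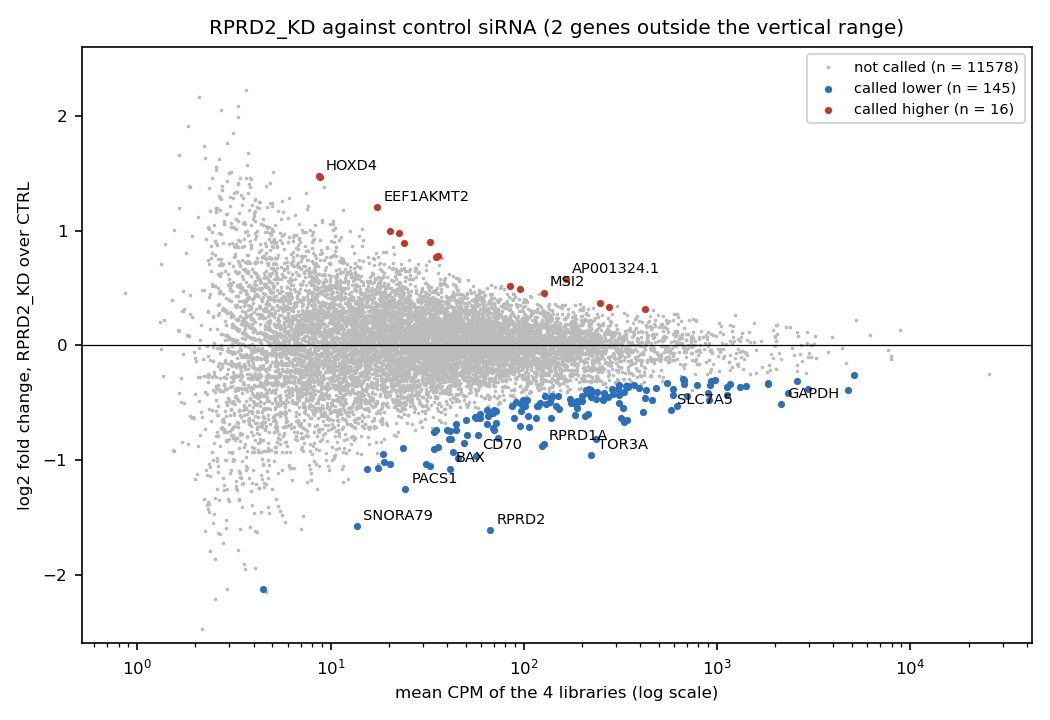
Log2 fold change of RPRD2_KD over CTRL (vertical axis) against mean CPM of the 4 libraries (horizontal axis, log scale) for the 11739 genes tested, with 145 genes called lower in blue and 16 called higher in red; 2 genes lie outside the vertical range. The blue points lie mostly above 10 CPM and reach small fold changes among abundant genes, while RPRD2 and TOR3A lie apart from genes of their abundance.

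A total of 9 genes passed in each of the following fits: the one reported, RLE size factors, DESeq2, a GC correction, the fit restricted to the 4 compared libraries, the fit restricted to CTRL and the single knockdowns, and each fit without 1 library. They were RPRD2, TOR3A, AP1S1, CHTF8, DNAJC7, IGFBP2, PES1, QTRT1 and SLC7A5, and all were lower. These names were picked after their values were seen, and a gene to which DESeq2 gave no adjusted p counted as not passing.

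TOR3A had the smallest adjusted p after RPRD2. It encodes torsin family 3 member A, an ATPase of the AAA+ type in the endoplasmic reticulum. TOR3A (chromosome 1, GRCh38 positions 179081377 to 179098023) stood at 305 and 285 CPM in CTRL and at 160 and 144 CPM in RPRD2_KD, 51.5% of the control mean. The groups did not overlap, and the log2 fold change was -0.96 (SE 0.10, adjusted p = 5.28e-10). Without 1 of the 4 libraries it ran from -1.01 to -0.92, with adjusted p of at most 6.28e-06, but without the replicate block TOR3A missed the threshold (adjusted p = 0.0738).

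TOR3A was also lower against the other single knockdowns and in a comparison with no library in common. Against RPRD1A_KD its log2 difference in RPRD2_KD was -0.71 (SE 0.10, adjusted p = 2.53e-06), and against RPRD1B_KD it was -0.82 (SE 0.10, adjusted p = 4.77e-08). In RPRD1B_RPRD2_KD against RPRD1B_KD, which shares no library with RPRD2_KD against CTRL, TOR3A was lower by a log2 difference of -0.72 (SE 0.10, adjusted p = 3.16e-06). That value did not differ detectably from the fall in RPRD2_KD (difference 0.24, SE 0.14, adjusted p = 0.539). In RPRD1A_RPRD1B_RPRD2_KD against RPRD1A_RPRD1A_KD it was -0.29 (SE 0.10, adjusted p = 0.996), where RPRD2 itself fell less (log2 difference -0.75, SE 0.14, adjusted p = 0.0161). Against CTRL, TOR3A also passed in RPRD1A_RPRD1A_KD, which has RPRD2 at 101 and 104 CPM, by a smaller amount (log2 fold change -0.36, adjusted p = 0.0463).

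The next genes in that set serve membrane traffic, growth signalling, replication and RNA modification. AP1S1, a subunit of the AP-1 clathrin adaptor, was at 309 and 296 CPM in CTRL and at 187 and 157 CPM in RPRD2_KD (log2 fold change -0.82, SE 0.11, adjusted p = 2.14e-06). QTRT1, the catalytic subunit of the enzyme that puts queuine into transfer RNAs, went from 173 and 156 CPM to 102 and 78.9 CPM (-0.87, SE 0.13). CHTF8, part of an alternative clamp loader used in DNA replication, was at 417 and 393 CPM in CTRL and at 289 and 222 CPM in RPRD2_KD (log2 fold change -0.67, SE 0.10). IGFBP2, a secreted binder of insulin-like growth factors, stood at 482 and 358 CPM against 289 and 242 CPM (-0.65, SE 0.09). SLC7A5, the large neutral amino acid transporter LAT1, was at 666 and 715 CPM in CTRL and at 485 and 450 CPM in RPRD2_KD (-0.56, SE 0.09). In none of these 5 genes did the groups overlap. Each of the 5 was also below both CTRL libraries in all RPRD1A_KD and RPRD1B_KD libraries. QTRT1 was at 110 and 110 CPM in RPRD1A_KD and at 105 and 122 CPM in RPRD1B_KD. AP1S1 was at 221 and 226 CPM in RPRD1A_KD and at 228 and 239 CPM in RPRD1B_KD. In RPRD2_KD against RPRD1A_KD only CHTF8 of the 5 passed (log2 difference -0.41, SE 0.10, adjusted p = 0.0215). None of them passed against RPRD1B_KD.

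The falls were also ranked by size among genes with non-overlapping libraries and at least 10 CPM in the higher group. PACS1, BAX and CD70 were among the 15 largest. PACS1, which sorts cargo at the trans-Golgi network, was at 37.8 and 31.0 CPM in CTRL and at 13.9 and 14.7 CPM in RPRD2_KD (log2 fold change -1.25, SE 0.24, adjusted p = 0.00118). BAX, the pro-apoptotic BCL2-family effector, went from 59.0 and 52.9 CPM to 31.3 and 21.97 CPM (-1.08, SE 0.19, adjusted p = 0.000262). CD70, the ligand of the lymphocyte receptor CD27, went from 79.1 and 70.7 CPM to 40.4 and 36.6 CPM (-0.96, SE 0.16, adjusted p = 0.000138). Against the same CTRL libraries CD70 also passed in RPRD1B_KD (-0.60, adjusted p = 0.0365) and RPRD1A_RPRD1A_KD (-0.72, adjusted p = 0.00718), whose labels name no RPRD2. PACS1 and BAX did not pass in those groups. Each RPRD2_KD library was below both CTRL libraries in these 3 genes, which was a condition of the ranking. In the 4 fits that each left out 1 library, CD70 passed in 4, BAX in 3 and PACS1 in 2, with adjusted p of at most 0.0755 for BAX and 0.0768 for PACS1.

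The other ranked falls included a protease, an RNA helicase and a G protein subunit. CTSZ, the lysosomal protease cathepsin Z, was at 27.5 and 23.3 CPM in CTRL and at 11.3 and 13.4 CPM in RPRD2_KD (log2 fold change -1.02, SE 0.28). DDX19B, an RNA helicase of messenger RNA export, went from 48.1 and 45.2 CPM to 23.03 and 27.3 CPM (-0.88, SE 0.19), and its 3′ end overlaps other annotated genes. ZNF76, a zinc finger transcription factor, went from 54.4 and 35.6 CPM to 22.2 and 24.8 CPM (-0.91, SE 0.22). GNG7, a gamma subunit of heterotrimeric G proteins, went from 26.4 and 35.1 CPM to 17.8 and 15.5 CPM (-0.89, SE 0.23). RPL39L, a copy of the ribosomal protein gene RPL39 whose reads can be shared with it, had a log2 fold change of -1.04 (SE 0.26), and TMTC4, a mannosyltransferase of the endoplasmic reticulum, had -0.95 (SE 0.26). AC010969.2 and AC090498.1, which lack a descriptive name, had -1.08 (SE 0.29) and -1.04 (SE 0.24). Against the same CTRL libraries, AC010969.2 also passed in RPRD1B_KD (-1.11, adjusted p = 0.0439) and AC090498.1 in RPRD1A_RPRD1A_KD (-0.96, adjusted p = 0.0273). CTSZ, GNG7, TMTC4, AC010969.2 and AC090498.1 lost the call on leaving out any 1 of the 4 libraries. ABHD8 had the largest fitted fall (-2.12, SE 0.58, adjusted p = 0.0401), but at 4.58 and 10.0 CPM in CTRL and 0.434 and 2.85 CPM in RPRD2_KD it lay near the floor.

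**Figure D3:**
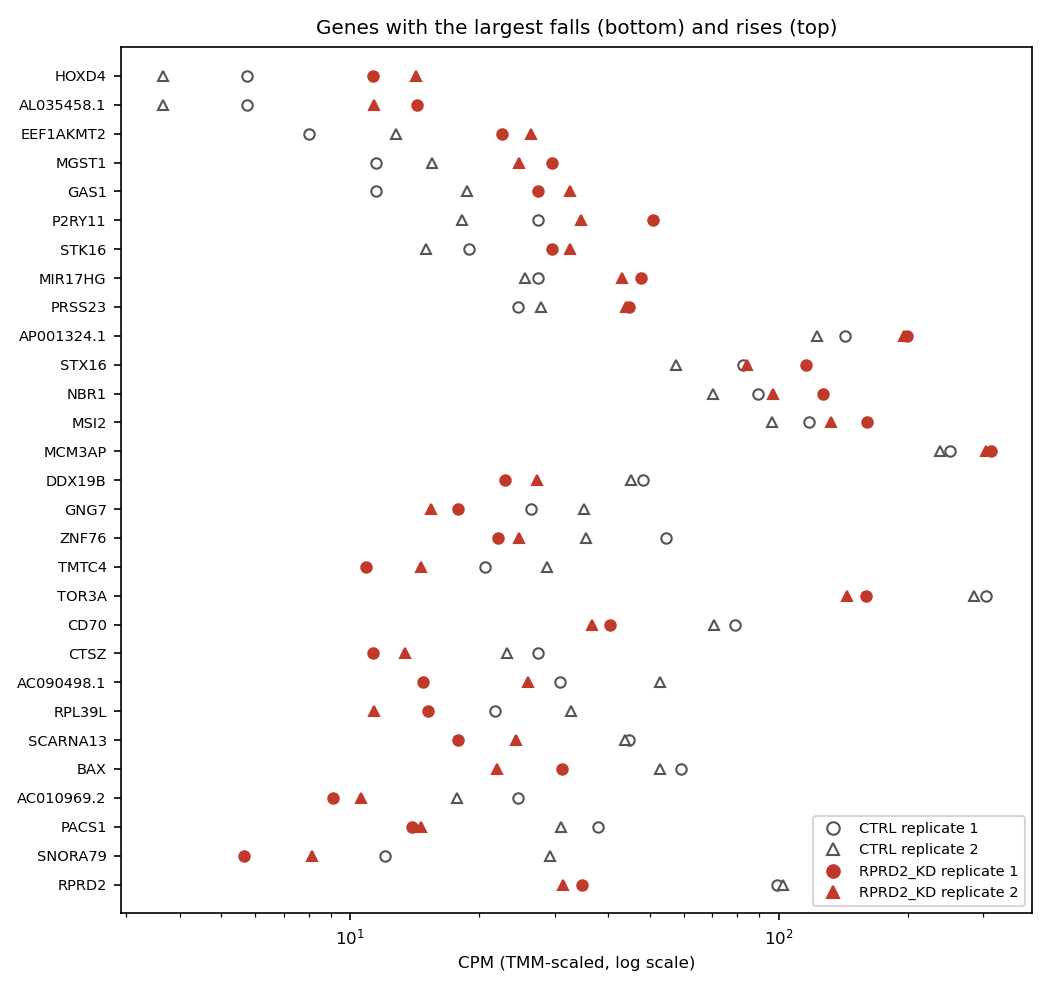
CPM (horizontal axis, log scale) in CTRL (open symbols) and RPRD2_KD (red) libraries, circles for replicate 1 and triangles for replicate 2, for the 15 largest falls (bottom) and the 14 rises that met the same conditions (top). In each row the 2 groups do not overlap, a condition of the choice.

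Rises were few. The median level of the 16 higher genes was 35.6 CPM, against 184 CPM for the 145 lower ones and 27.3 CPM over all genes tested. EEF1AKMT2, a lysine methyltransferase of the elongation factor eEF1A, was at 8.02 and 12.8 CPM in CTRL and at 22.6 and 26.4 CPM in RPRD2_KD (log2 fold change 1.21, SE 0.27, adjusted p = 0.00747). Against the same CTRL libraries EEF1AKMT2 also passed in RPRD1B_KD (log2 fold change 1.09, adjusted p = 0.0327) and RPRD1A_RPRD1A_KD (1.19, adjusted p = 0.0134). Neither label names RPRD2. It did not pass in RPRD1A_KD (0.60, adjusted p = 0.524). GAS1, a hedgehog co-receptor, went from 11.5 and 18.7 CPM to 27.4 and 32.6 CPM (0.97, SE 0.24, adjusted p = 0.0208). MIR17HG, the host transcript of the miR-17-92 microRNA cluster, went from 27.5 and 25.5 CPM to 47.8 and 43.1 CPM (0.78, SE 0.19, adjusted p = 0.017). The mature microRNAs were not measured.

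Other rises included MSI2, an RNA-binding regulator of translation, at 118 and 96.2 CPM in CTRL and 161 and 133 CPM in RPRD2_KD (log2 fold change 0.46, SE 0.12). MCM3AP, a scaffold of messenger RNA export, rose by 0.33 (SE 0.09), and NBR1, a selective autophagy receptor, by 0.49 (SE 0.13). STX16, a SNARE of Golgi traffic, rose by 0.52 (SE 0.14), PRSS23, a secreted serine protease, by 0.77 (SE 0.21), and MGST1, a microsomal glutathione transferase, by 1.00 (SE 0.27). STK16, a Golgi kinase, rose by 0.89 (SE 0.25). AP001324.1, an unnamed locus on chromosome 11, was at 143 and 123 CPM in CTRL and 200 and 196 CPM in RPRD2_KD (0.58, SE 0.12, adjusted p = 0.00399). HOXD4 (1.48, SE 0.40), AL035458.1 (1.47, SE 0.39) and P2RY11 (0.90, SE 0.21) overlap other genes at their 3′ ends (HOXD3, AL035458.2 and EIF3G among them), and reads of such genes may be assigned between them. EEF1AKMT2 likewise overlaps AC068896.1 on its own strand. MGST1 and STK16 overlap LMO3 and TUBA4A on the other strand, as P2RY11 does EIF3G. Against the same CTRL libraries HOXD4 also passed in RPRD1A_RPRD1A_KD (1.60, adjusted p = 0.0258). The calls of the rises depended on single libraries: in the 4 fits that each left out 1 library, EEF1AKMT2 and AP001324.1 passed in 2 and HOXD4 and P2RY11 in 1. The other 10 rises passed in 0 of these 4 fits.

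Genes were also described by lists that were chosen with earlier results known. Over all genes the median log2 fold change was 0.00, 1.24% were called lower and 12.2% had an unadjusted p under 0.05, and no list had a called rise. In the list of CTD-interaction domain genes, 2 of 8 passed, RPRD2 and RPRD1A, both lower, with a median of -0.04. Of the subunits of RNA polymerase II, 2 of 12 tested passed, both lower: POLR2E was at 1413 and 1123 CPM in CTRL and at 1106 and 860 CPM in RPRD2_KD (-0.37, SE 0.08), and POLR2L was at 370 and 403 CPM against 299 and 306 CPM (-0.35, SE 0.10). Both encode small subunits that RNA polymerase II shares with polymerases I and III, and the median of the list was -0.03. POLR2E passed in 2 of the 4 fits without 1 library and POLR2L in 0, and DESeq2 kept POLR2E but not POLR2L (adjusted p = 0.1).

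The enzymes that write and erase CTD phosphorylation did not pass. None of 23 kinases and phosphatases of the CTD passed (median 0.02, 0 at an unadjusted p under 0.05), including CDK12, an elongation kinase (log2 fold change 0.17, SE 0.13), and SSU72, a CTD phosphatase (-0.20, SE 0.10). None of 29 elongation and pausing factors passed (median 0.01, 6 at an unadjusted p under 0.05). NELFB, a subunit of the negative elongation factor, was at 340 and 281 CPM in CTRL and at 391 and 352 CPM in RPRD2_KD (0.26, SE 0.09, adjusted p = 0.176). Of 35 genes of cleavage, polyadenylation and Integrator, the scaffold SYMPK passed, lower by -0.51 (SE 0.11, adjusted p = 0.00351), although its libraries overlapped (281 and 156 CPM against 188 and 116 CPM).

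Few members of the stress and metabolic lists passed. None of 7 tested genes of the innate response to RNA passed, with a median of -0.12 and 5 below 0. None of 16 immediate early genes passed (median -0.07), and in each of these 2 lists 2 genes had an unadjusted p under 0.05. In the p53 list 1 of 19 passed, BAX, lower (median 0.03, 2 at an unadjusted p under 0.05). In the list of ATF4 and amino acid response genes 2 of 24 passed, SLC7A5 and the transcription factor ATF5 (-0.76, SE 0.20), both lower (median -0.09). At an unadjusted p under 0.05 there were 6 of these 24. Of 28 genes of glycolysis and hypoxia 2 passed, both glycolytic enzymes and both lower: GAPDH was at 2754 and 2302 CPM in CTRL and at 1913 and 1619 CPM in RPRD2_KD (-0.52, SE 0.09, adjusted p = 0.000138), and ALDOA was at 661 and 946 CPM against 531 and 642 CPM (-0.44, SE 0.10). The median of that list was 0.02, and 9 of its 28 genes had an unadjusted p under 0.05, against 12.2% of all genes. GAPDH was at 1962 and 1972 CPM in RPRD1A_KD and at 1982 and 1851 CPM in RPRD1B_KD. Neither GAPDH nor ALDOA passed in RPRD2_KD against these 2 groups. GAPDH passed in each of the 4 fits without 1 library, and both genes missed the threshold with DESeq2 (adjusted p = 0.0746 for GAPDH and 0.211 for ALDOA).

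Among chaperones 1 of 23 passed, SDF2L1 of the endoplasmic reticulum (-0.40, SE 0.09), with overlapping libraries, and 6 of the 23 had an unadjusted p under 0.05. No gene of cholesterol synthesis (22 tested, median 0.08), S phase and G1/S (28, median -0.08), Wnt targets (15, median 0.01) or RNA interference machinery (12, median 0.14) passed. At an unadjusted p under 0.05 there were 4 of 22, 10 of 28, 1 of 15 and 1 of 12 genes of these lists, against 12.2% of all genes. The share in S phase and G1/S lay above that of all genes, with 18 of its 28 genes below 0, and this was not tested. In G2 and mitosis the spindle checkpoint kinase TTK was the single call of 26 (-0.63, SE 0.17).

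Ribosome and organelle genes had few calls. Of 77 cytosolic ribosomal protein genes 3 passed, all lower, among them RPS3 (-0.38, SE 0.08) and RPS4X (-0.26, SE 0.07), with a median of -0.01 over the list. Of 71 mitochondrial ribosomal protein genes, MRPL41 passed (-0.41, SE 0.10), and of 30 proteasome genes, PSMD3 (-0.32, SE 0.08). None of 61 nuclear respiratory chain genes passed (median 0.03), none of 17 small nucleolar RNA host genes (median -0.05) and none of 13 replication-dependent histone genes (median -0.20). At an unadjusted p under 0.05 there were 8, 3 and 4 genes, and DESeq2 called none in any of the lists without an edgeR call. It gave no adjusted p to BAX, ATF5 or TTK. The 13 messenger RNAs encoded in mitochondria are listed at 0 in all 16 libraries and were not tested. Of 279 ZNF-named zinc finger genes 6 passed, all lower (ZNF205, ZNF358, ZNF367, ZNF428, ZNF76 and ZNF787), or 2.15% against 1.24% of all genes, and the median was 0.03. In the 4 fits without 1 library, ZNF428, ZNF76 and ZNF787 passed in 2, ZNF358 and ZNF367 in 1 and ZNF205 in 0. DESeq2 called ZNF428 and gave the other 5 no adjusted p.

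**Figure D4:**
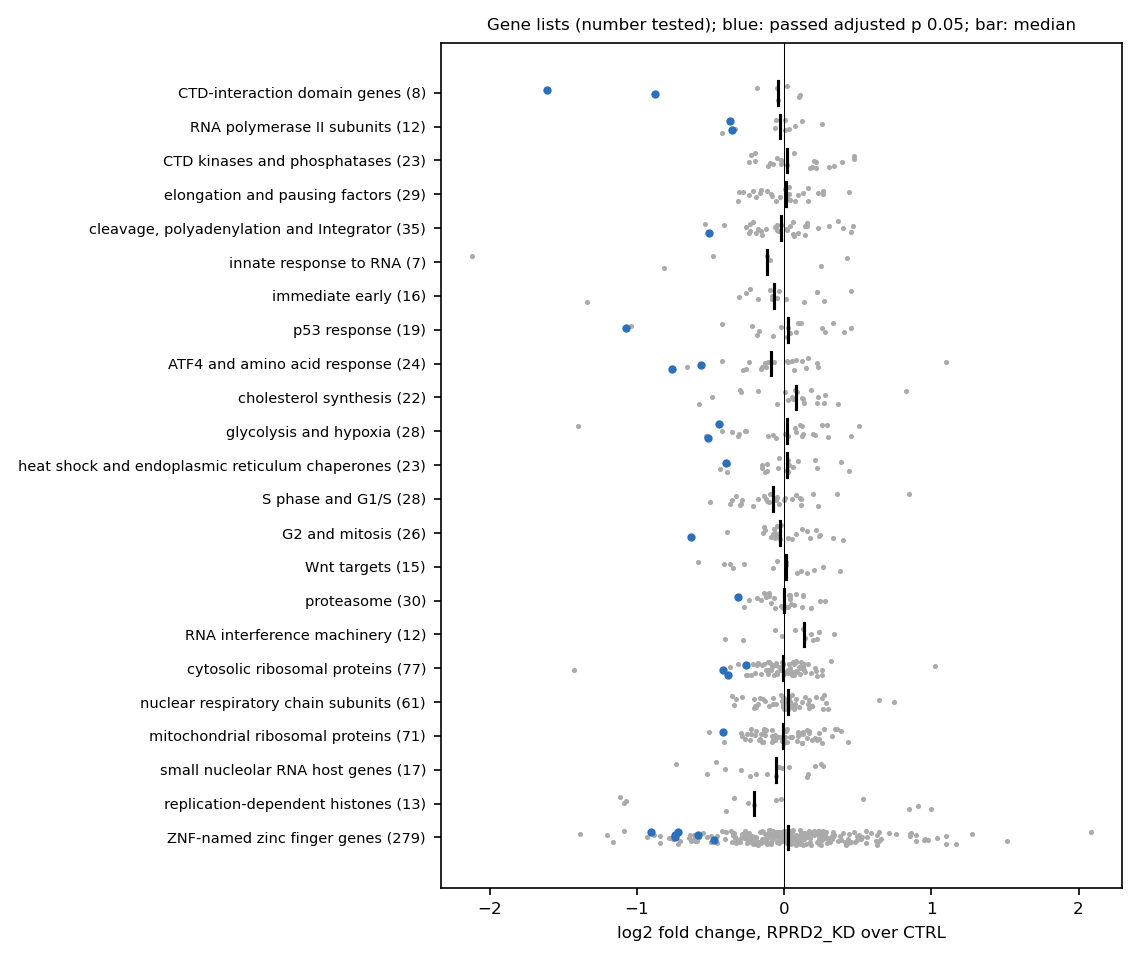
Log2 fold change of RPRD2_KD over CTRL (horizontal axis) for each tested member of the gene lists (rows, number tested in brackets), with members that passed in blue and a bar at the list median. The medians lie between -0.20 and 0.14, and each blue point lies to the left of 0.

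The 145 lower genes differed from all tested genes in abundance and base composition. Their median level was 184 CPM against 27.3 CPM over all tested genes, and the median GC content of their transcripts was 56.8% against 49.8%. Abundant genes can pass at smaller fold changes, so the level is not independent of the choice by p-value. Among genes with a mean of 100 CPM or more, the median GC content was 57.0% in the 94 lower genes and 51.1% in the 2058 tested. In 5 bins of genes by GC content, from the lowest to the highest, 10, 14, 26, 41 and 53 genes were lower, and the median log2 fold change of all genes in a bin went from 0.04 to -0.06. With a GC correction and the replicate block, chosen after seeing the data, 173 genes passed, 143 of them lower, and 137 were among the 161. The part of base composition in the count was not tested further.

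Among the lower genes were 7 small structured RNAs, and their sequences show the class that 4 of them belong to. Small nucleolar and Cajal body RNAs guide the modification of other RNAs, spliceosomal RNAs take part in splicing, and Y RNAs bind the Ro protein. Most such RNAs lack a long poly(A) tail in their mature form. Of 32 tested, 7 were lower (21.9%, against 1.24% of all genes) and 0 higher. Their median log2 fold change was -0.53 and 26 were below 0 (81.2%, against 49.3% of all genes). This set was put together after its values were seen and has no test. It leaves out SCARNA4, a name that 2 annotated genes share. Of the 7 lower ones, 4 are of the H/ACA class, in which the letters ACA lie 3 bases before the 3′ end, and these are shown 5′ to 3′ from GENCODE 29 transcripts with that ACA in capitals.
SNORA79: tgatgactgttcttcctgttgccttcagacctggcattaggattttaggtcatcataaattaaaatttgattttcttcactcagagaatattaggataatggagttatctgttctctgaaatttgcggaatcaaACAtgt
SNORA79B: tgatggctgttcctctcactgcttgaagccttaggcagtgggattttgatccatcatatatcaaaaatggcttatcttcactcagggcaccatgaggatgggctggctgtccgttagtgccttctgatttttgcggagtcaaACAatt
SCARNA13: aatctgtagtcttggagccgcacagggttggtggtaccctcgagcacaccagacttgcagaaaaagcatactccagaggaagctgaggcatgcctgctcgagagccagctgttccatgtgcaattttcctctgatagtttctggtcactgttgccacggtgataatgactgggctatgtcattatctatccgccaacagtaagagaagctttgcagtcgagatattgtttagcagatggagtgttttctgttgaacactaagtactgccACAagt
SCARNA22: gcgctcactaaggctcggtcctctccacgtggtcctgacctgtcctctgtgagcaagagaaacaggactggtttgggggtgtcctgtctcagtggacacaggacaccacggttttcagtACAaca
The motif searched was ACA at this one position on the transcript strand, and no other feature of the class was examined. It was present in 107 of 142 SNORA genes (75.4%), in 13 of 23 SCARNA genes (56.5%) and in 4 of 275 SNORD genes (1.45%), the other main class.

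SNORA79 (chromosome 14, positions 81202695 to 81202834, minus strand, GRCh38) lies within GTF2A1 and was at 12.03 and 29.2 CPM in CTRL and at 5.65 and 8.14 CPM in RPRD2_KD (log2 fold change -1.58, SE 0.30, adjusted p = 0.00104). SCARNA13 (chromosome 14, 95533355 to 95533629, minus strand) lies within SNHG10 and was at 44.7 and 43.8 CPM against 17.8 and 24.4 CPM (-1.06, SE 0.20, adjusted p = 0.00104). SCARNA22 (chromosome 4, 1974636 to 1974760, plus strand) lies within NSD2 and was at 47.6 and 78.4 CPM against 28.7 and 40.7 CPM (-0.85, SE 0.17). In these 3 the groups did not overlap. SNORA79B (chromosome 14, 20323179 to 20323326, minus strand) lies within CCNB1IP1, and its libraries overlapped between groups, at 13.2 and 34.7 CPM against 9.56 and 13.4 CPM (-1.07, SE 0.27). Without 1 library in turn, SCARNA13 passed in 4 of 4 fits, SCARNA22 in 3, SNORA79 in 2 and SNORA79B in 1.

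RNY4, a Y RNA, RNU5F-1, a U5 spliceosomal RNA, and RNU4ATAC, the U4atac RNA of the minor spliceosome, also passed with overlapping libraries, at -0.98 (SE 0.20), -0.93 (SE 0.19) and -0.53 (SE 0.13). The summed level of the 32 RNAs was 490 and 854 CPM in CTRL and 348 and 536 CPM in RPRD2_KD, so the replicate numbers differed about as much as the groups. Over the other 10 libraries of the fit it ran from 501 to 887 CPM. Against RPRD1B_KD, 7 of the 32 passed, all lower in RPRD2_KD, and the median of the 32 was -0.59, while against RPRD1A_KD 1 passed and the median was -0.31. SCARNA4, outside the set, was also lower against RPRD1B_KD (log2 difference -3.22, SE 0.65, adjusted p = 0.00542), at 0.434 and 1.22 CPM in RPRD2_KD. Against the same CTRL libraries, the median of the 32 was 0.28 in RPRD1B_KD and -0.23 in RPRD1A_KD. In RPRD1B_RPRD2_KD against RPRD1B_KD it was -0.27.

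Comparison with the other single knockdowns asked which differences go with the target that was silenced. RPRD2_KD differed from RPRD1A_KD in 47 genes (0.4% of those tested), 21 lower (0.179%) and 26 higher (0.221%), and from RPRD1B_KD in 19 (0.162%), 14 lower (0.119%) and 5 higher (0.0426%), with both targets among them. Genes lower in RPRD2_KD against both were RPRD2, TOR3A, SNORA79 and ARNT. ARNT (chromosome 1, 150809705 to 150876768), the partner of hypoxia-inducible and aryl hydrocarbon receptor factors, lies on the same chromosome arm as RPRD2. It had a log2 difference of -0.59 (SE 0.11, adjusted p = 0.00192) against RPRD1A_KD and of -0.51 (SE 0.11, adjusted p = 0.0259) against RPRD1B_KD. Against CTRL it was at 103 and 100.1 CPM in RPRD2_KD and at 132 and 120 CPM in CTRL, and did not pass (-0.31, SE 0.12, adjusted p = 0.234).

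Most of the 145 genes lower than CTRL were not called against the other single knockdowns. Of them, 8 were lower than in RPRD1A_KD and 8 lower than in RPRD1B_KD, with median log2 differences of -0.21 and -0.20. These comparisons share the RPRD2_KD libraries with the one that chose the genes. Measured against the same CTRL libraries, the 145 genes had medians of -0.29 in RPRD1A_KD, -0.33 in RPRD1B_KD, -0.16 in RPRD1B_RPRD2_KD, -0.30 in RPRD1A_RPRD1A_KD and -0.26 in RPRD1A_RPRD1B_RPRD2_KD. All of these share the CTRL libraries with RPRD2_KD against CTRL, so the values are given side by side only.

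Where the controls were not shared, the 145 genes did not move as a set in the same direction. In RPRD1B_RPRD2_KD against RPRD1B_KD, 3 genes passed (0.0256%), all lower: RPRD2, TOR3A and the glucose transporter SLC2A3 (log2 difference -1.33, SE 0.27, adjusted p = 0.032). SLC2A3 had a log2 fold change of -0.05 (SE 0.28) in RPRD2_KD against CTRL. In that comparison the median of the 145 was 0.14, and 39 of them (26.9%) were below 0, against 49.7% of all genes tested. In RPRD1A_RPRD1B_RPRD2_KD against RPRD1A_RPRD1A_KD only RPRD2 passed (0.00852%), with 464 genes at an unadjusted p under 0.05, and the median of the 145 was 0.05. For the 16 higher genes the 2 medians were 0.05 and 0.05. Across 8819 genes with a mean of 10 CPM or more, Spearman's rho between the log2 fold changes of RPRD2_KD against CTRL and of RPRD1B_RPRD2_KD against RPRD1B_KD was -0.08. Genes are not independent replicates, and libraries with the same replicate number deviate together in both comparisons.

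The difference between these 2 effects was tested gene by gene, and 141 genes passed (1.2%), 131 with a higher value in the presence of RPRD1B siRNA (1.12%) and 10 with a lower one (0.0852%). GAPDH fell by 0.52 on the log2 scale against CTRL and was at 0.35 (SE of the difference 0.12, adjusted p = 1.45e-05) in RPRD1B_RPRD2_KD against RPRD1B_KD, and BAX went from -1.08 to 0.50 (adjusted p of the difference 0.000105). In both genes the RPRD1B_KD level was itself below CTRL. GAPDH was at 2754 and 2302 CPM in CTRL, 1982 and 1851 CPM in RPRD1B_KD and 2813 and 2095 CPM in RPRD1B_RPRD2_KD. BAX was at 59.0 and 52.9 CPM in CTRL, 40.2 and 33.1 CPM in RPRD1B_KD and 57.5 and 45.8 CPM in RPRD1B_RPRD2_KD. RPRD2 itself had a difference of 0.39 (SE 0.21, adjusted p = 0.5). No gene passed in edgeR without the replicate block (514 at an unadjusted p under 0.05) or with all 16 libraries and the block (759), while DESeq2 called 72. Leaving out 1 library left 33 to 158 genes, with the lowest number without RPRD1B_RPRD2_KD replicate 1.

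**Figure D5:**
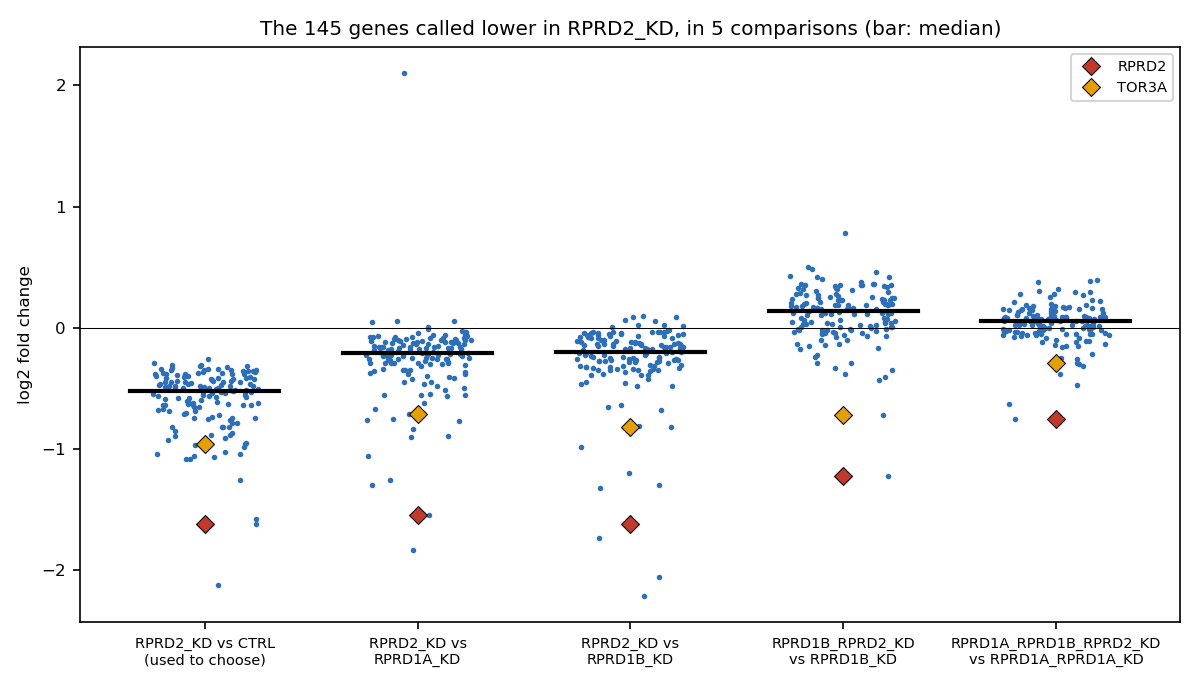
Log2 fold change (vertical axis) of the 145 genes called lower in RPRD2_KD against CTRL, in that comparison and in 4 others (points, with bars at the medians), with RPRD2 in red and TOR3A in orange. The medians are -0.52, -0.21, -0.20, 0.14 and 0.05 from left to right, while RPRD2 and TOR3A lie below 0 in all 5.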

How the data were processed

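The deposited values are raw counts of reads per gene name, which the authors made with HTSeq after alignment with STAR to GRCh38, per the submitters' processing notes, which also name FastQC and DESeq2. Versions, annotation, strand setting and filters are not given in the sources used here. Rows for reads outside genes, ambiguous and multiply aligned reads (40.8% to 46.9% of the rows' total in the 4 libraries) were left out.

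The tests used edgeR 4.0.16 under R 4.3.3, with limma 3.58.1: filterByExpr by group (counts of at least 10, totals of at least 15), TMM scaling, glmQLFit and glmQLFTest over 14 libraries of 7 groups with the replicate number as a block (6 residual degrees of freedom), Benjamini-Hochberg adjustment and a threshold of 0.05. SE was derived from the log2 fold change and its F. Replicate numbers come from the titles. Deviations of same-numbered libraries from their group means correlated at 0.29 to 0.52 in all 21 pairs of groups, over genes averaging at least 10 CPM, so the numbers were taken to pair the libraries. Alternatives were other sets of libraries, no block, RLE, DESeq2 1.42.0, other filters, a fold threshold, single libraries left out and a GC correction.

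The fit, the genes and the lists were chosen with earlier results of these data known. Genes named are the 3 RPRD genes; up to 15 falls and 15 rises by size that passed, did not overlap, moved alike in both pairs and reached 10 CPM; called members of each list, or abundant ones; and 3 neighbours on each side of RPRD2. Other names were chosen after their values were seen. Some genes that meet this rule are not reported here. Symbols were matched to GENCODE 29, where 54814 of 58138 names had 1 gene.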

Additional observations from a re-analysis of the deposited data

Results flagged for a closer look

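The test of the difference between RPRD1B_RPRD2_KD against RPRD1B_KD and RPRD2_KD against CTRL passed (edgeR, adjusted p under 0.05) for 26 of the named genes. They were named for their change in RPRD2_KD against CTRL, which is 1 of the 2 effects in that difference, so the direction of the differences is not independent of the choice. The effect was higher with RPRD1B siRNA in 25 of them, by a log2 difference of 1.71 for RNU5F-1, 1.58 for BAX, 1.45 for PACS1, 1.21 for ZNF205, 1.20 for ZNF787, 1.14 for ZNF367, 1.14 for QTRT1, 1.07 for ATF5 and 1.03 for AP1S1. It was 0.92 for ZNF358, 0.87 for GAPDH, 0.87 for TTK, 0.86 for CD70, 0.83 for SYMPK, 0.82 for PES1, 0.75 for SLC7A5, 0.73 for ZNF428 and 0.73 for CHTF8. It was 0.67 for DNAJC7, 0.67 for IGFBP2, 0.66 for MRPL41, 0.63 for RPS3, 0.61 for POLR2E, 0.50 for ALDOA and 0.38 for RPS4X. It was lower for STK16 (-1.30, SE 0.34, adjusted p = 0.0285).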

How the results depend on the processing

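RPRD2 kept its direction and passed in every setting tried (-1.72 to -1.51, leaving out single libraries included). The number of genes that passed in RPRD2_KD against CTRL, 161 as reported, was 1 without the replicate block, 2 with all 16 libraries and the replicate block, 1 with all 16 and no block, 1 with only the compared groups and no block, 77 with DESeq2, 14 with a minimum absolute fold (log2) of 1, and 25 to 77 with 1 library left out. Against RPRD1A_KD (47) the same settings gave 3, 7, 3, 2, 18, 12 and 13 to 21, and only the compared groups with the replicate block gave 142. Against RPRD1B_KD (19) they gave 2, 9, 2, 2, 10, 12 and 10 to 16, and the compared groups with the block gave 30. In RPRD1B_RPRD2_KD against RPRD1B_KD (3) they gave 1 without the block, 1 with all 16 libraries and no block, 0 with the compared groups and no block (152 at an unadjusted p under 0.05 in edgeR), 6 with no filter on low counts, and 2 to 5 with 1 library left out. In RPRD1A_RPRD1B_RPRD2_KD against RPRD1A_RPRD1A_KD (1) the count was 0 without the replicate block, with all 16 libraries with or without it, with the compared groups with or without it, with DESeq2 and with the fold threshold (184, 270, 150, 386, 150, 116 and 464 at an unadjusted p under 0.05), and 0 to 2 with 1 library left out. For the difference between effects (141) it was 0 without the block (514), with all 16 libraries with (759) or without it (390) and with the compared groups and no block (408), 72 with DESeq2, 24 with the fold threshold, and 33 to 158 with 1 library left out. The block and the set of libraries thus decide most calls other than RPRD2. The cause was not tested. A left-out library leaves a group with 1 sample, assumed to vary like the others. At 1833696 to 2413779 counts a library, levels of a few CPM rest on few counts.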
